A study of Tamarix ramosissima and Tamarix chinensis with 11 samples.

Results

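The response of *T. chinensis* leaves to water deficit (WD) was examined in 5 of the 11 libraries of the series, 3 from WD plants and 2 from well-watered control (C) plants, for the 28210 of 117867 assembled genes with a CPM (count scaled to library size, per 1000000 fragments) above 1 in at least 2 of the 5. The libraries were chosen by the species and treatment in their labels, and no measured value was used. *Tamarix* is a salt-tolerant shrub or small tree that has invaded river banks in the United States. Each library came from the leaves of 1 plant of 14 weeks at the start of treatment, grown from seed of 1 established New Mexico stand and kept in a growth chamber at 25 °C. WD plants received no water until their leaves wilted on day 10, and C plants stood in shallow water until the same day. The remaining 6 libraries came from *T. ramosissima*, 3 WD plants and 3 C plants of the same age, harvested at their own wilting point on day 17. Their seed came from Montana and was collected on a later date. Species, seed source and day of harvest therefore cannot be told apart in any contrast between them.

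When water runs short, plants close their stomata, and the hormone abscisic acid builds up and switches on genes for protective proteins, compatible solutes and ion transport. Genes for photosynthesis and growth are commonly turned down over the same period. A wilted leaf thus carries both an induced and a repressed set of transcripts. No gene names accompany the identifiers in the deposited files, so genes could not be assigned to these pathways, and leaf markers could not be checked. The genes are described here by direction, abundance, detection, spread among plants and response in the other species. A gene is a group of contigs of the de novo assembly, and its sequence was not used here. Identifiers are given only for the 4 genes that a rule selected.

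The libraries were of similar depth. Total counts were 10245008, 13086118 and 11063900 fragments in WD plants 1 to 3 and 11072277 and 15655257 in C plants 1 and 2. Values of at least 1 TPM (a length-corrected share of the library's transcripts, per 1000000) were found for 36385, 35282 and 37243 genes in WD plants and 37649 and 33884 in C plants, so the groups overlapped. The mean difference was 537 genes, with a two-sided exact permutation p of 0.8, and 10 arrangements of 5 libraries allow no p below 0.2. The 100 most abundant genes held 23.7%, 22.4% and 23.6% of the TPM in WD plants and 22.4% and 22.8% in C plants, a mean of 23.3% ± 0.705 (SD, n = 3) and 22.6% ± 0.285 (SD, n = 2), with an exact permutation p of 0.4. The groups overlapped in both measures. They did not overlap for the 10 most abundant genes, which held 9.39%, 9.54% and 10.6% of the TPM in WD plants and 9.21% and 8.35% in C plants. Nor did they for genes at 5 TPM or more, 18988, 19100 and 19257 in WD plants and 19979 and 19326 in C plants. Each of these had an exact permutation p of 0.2, the smallest possible.

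WD plant 2 stood apart from the other WD plants. Between WD plants 1 and 3, 10.4% of tested genes differed 2-fold or more, on log2(CPM + 0.5). WD plant 2 differed that much from WD plant 1 in 16.5% of genes and from WD plant 3 in 15.1%. The C plants differed from each other in 5.25% of genes. Every WD plant was farther from the C plants than from any other WD plant, with 26.9% to 32.8% of genes at least 2-fold apart. WD plant 2 was the nearest of the 3 to both C plants. Values without WD plant 2 are therefore given beside the main counts. The biological coefficient of variation was 0.380 among the WD plants and 0.217 among the C plants, and it was 0.304 for WD plants 1 and 3 alone.

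**Figure D1:**
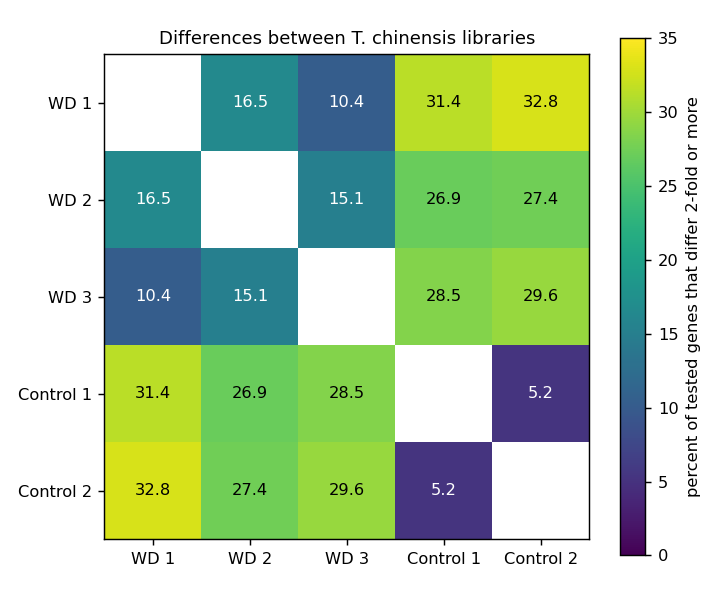
Percent of the 28210 tested genes that differed 2-fold or more between each pair of *T. chinensis* libraries, on log2(CPM + 0.5), with WD plants above and left of C plants. The C pair is the closest at 5.25% and the pairs of WD with C are the most distant at 26.9% to 32.8%.

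Few genes passed the strict threshold, and most of those were lower under WD. With edgeR's quasi-likelihood test, 98 genes (0.347% of those tested) were DEG once the Benjamini-Hochberg FDR was held to 0.005 and a change of 1 or more on the log2 scale was required. Of these, 16 (0.0567%) were up-regulated and 82 (0.291%) were down-regulated, so 83.7% of the DEG were lower in WD plants. The smallest adjusted p over all genes was 0.00215, close under the threshold. All 16 up-regulated genes lay above both C plants in every WD plant, and all 82 down-regulated genes lay below both. Of all tested genes, 26.7% and 29.2% did so in those directions. Choosing genes by p and fold in the same 5 libraries favours such separation, so it is no separate support for the calls. The median log2 fold change was 3.36 for up-regulated genes, which is 10.3-fold, with a range of 2.12 to 4.55. For down-regulated genes it was -3.66, which is 12.6-fold, with a range of -8.83 to -1.99.

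Among the strict DEG, the share of TPM lost by down-regulated genes was larger than the share gained by up-regulated genes. The 82 down-regulated genes together held 0.130%, 0.166% and 0.143% of the TPM in WD plants and 2.11% and 2.53% in C plants. The 16 up-regulated genes held 0.163%, 0.185% and 0.189% in WD plants and 0.0193% and 0.0183% in C plants. The groups did not overlap in either set, as the choice of the genes requires. The median down-regulated gene averaged 12.1 TPM in WD plants and 143.5 TPM in C plants, whereas the median up-regulated gene averaged 50.4 TPM in WD plants and 4.96 TPM in C plants. The 82 down-regulated genes of the strict set were thus mostly transcripts that were abundant in well-watered leaves. The 2674 genes that fell at an FDR of 0.05 had a lower median, 20.36 TPM in C plants. The abundance of the strict set therefore does not describe this wider set. A fall in a bulk leaf sample cannot tell fewer cells of a type from less RNA per cell.

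The 98 DEG depended strongly on which plants were in the fit. Without WD plant 2 there were 864 DEG, 450 up-regulated and 414 down-regulated, so 47.9% were lower and the excess of down-regulated genes was lost. Without WD plant 1, WD plant 3, C plant 1 or C plant 2 edgeR called 0, with 9000, 8957, 5786 and 5432 genes at an unadjusted p under 0.05, against 10371 with all plants. With all plants, the count was 45 in limma-trend on log2(TPM + 0.1), 4011 in edgeR's exact test and 5751 in the quasi-likelihood test with no filter on low counts. Of these, 82.2%, 61.6% and 57.0% were lower in WD plants. The share was 84.0% of 188 in limma-voom and 56.4% of 3940 in DESeq2, so the size of the excess also depended on the test. All 98 kept their direction in each of the 5 fits with 1 plant left out. All 98 passed an FDR of 0.05 when any 1 WD plant was left out. When C plant 1 was left out, 25 of the 98 passed it, and none did without C plant 2.

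The gene with the smallest p among those that fell was TRINITY_DN38648_c0_g1. It had 5.5, 2.13 and 4.84 TPM in WD plants, against 316.02 and 298.28 TPM in C plants. Its counts were 45, 53 and 39 fragments in WD plants and 3293 and 4740 in C plants, so it was still detected in every WD plant. It averaged 4.16 ± 1.79 TPM in WD plants (SD, n = 3) and 307 ± 12.5 TPM in C plants (SD, n = 2), and its log2 fold change was -6.21 ± 0.19 (SE; edgeR adjusted p = 0.00215), or 73.9-fold lower. In *T. ramosissima* the same gene had 24, 182.27 and 168.99 TPM in WD plants and 299.22, 201.73 and 328.85 TPM in C plants. All 3 WD plants lay below the C plants there, WD plant 1 by the most, and the log2 fold change was -0.61 (edgeR adjusted p = 0.669).

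The down-regulated DEG with the highest mean CPM was TRINITY_DN32774_c2_g1, which ranked 56 by mean TPM over the 5 libraries. It had 79.3, 154.81 and 89.58 TPM in WD plants, against 2219.15 and 2818.91 TPM in C plants. The WD plants were all far below the C plants, with WD plant 2 the highest of the 3. The log2 fold change was -4.53 ± 0.34 (SE; edgeR adjusted p = 0.00471). In *T. ramosissima* this gene had 718.87, 2341.51 and 1635.42 TPM in WD plants and 2738.32, 2703.61 and 2608.94 TPM in C plants, with a log2 fold change of -0.73 (edgeR adjusted p = 0.496). The WD plants of *T. ramosissima* were spread over a wide range but all lay below their C plants.

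Of the genes that rose, TRINITY_DN25066_c0_g1 had the smallest p. It had 29.21, 31.83 and 28.77 TPM in WD plants, against 3.18 and 2.53 TPM in C plants. The 3 WD plants had nearly the same level, 29.9 ± 1.65 TPM (SD, n = 3), while the C plants averaged 2.86 ± 0.460 TPM (SD, n = 2). The log2 fold change was 3.42 ± 0.18 (SE; edgeR adjusted p = 0.00343). In *T. ramosissima* the levels were 11, 5.84 and 5.38 TPM in WD plants and 3.12, 3.61 and 1.43 TPM in C plants, which did not overlap, with a log2 fold change of 1.42 ± 0.44 (SE; edgeR adjusted p = 0.121).

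The up-regulated DEG with the highest mean CPM was TRINITY_DN38575_c0_g1, which ranked 426 by mean TPM. It had 291.67, 410.25 and 505.64 TPM in WD plants, against 22.94 and 18.87 TPM in C plants. WD plants differed among themselves by less than the distance to the C plants, and the log2 fold change was 4.24 ± 0.33 (SE; edgeR adjusted p = 0.00493). In *T. ramosissima* it had 101.94, 30.03 and 40.66 TPM in WD plants and 14.53, 18.08 and 11.25 TPM in C plants, again without overlap, with a log2 fold change of 1.37 (edgeR adjusted p = 0.124). For these 4 genes the difference between the species' responses, tested as an interaction, was 2.05 for TRINITY_DN25066_c0_g1, 2.92 for TRINITY_DN38575_c0_g1, -5.55 for TRINITY_DN38648_c0_g1 and -3.76 for TRINITY_DN32774_c2_g1 on the log2 scale. None passed the FDR (edgeR adjusted p = 0.176, 0.0984, 0.0650 and 0.0747 in that order).

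**Figure D2:**
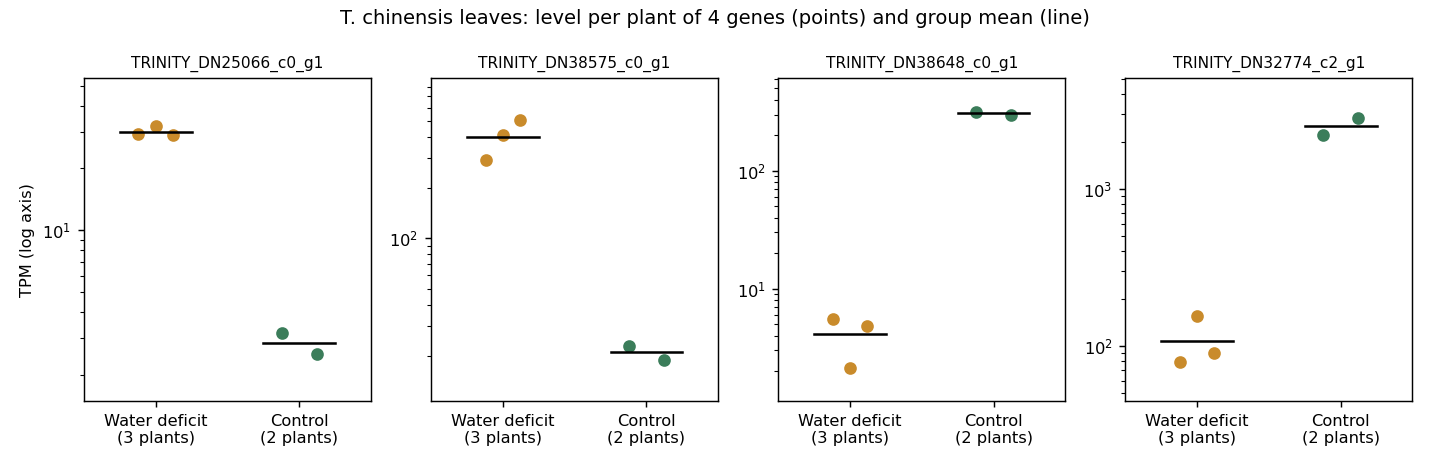
TPM on a log axis of the 4 named genes in each *T. chinensis* plant (points), with WD plants left of C plants and the group mean as a line. TRINITY_DN25066_c0_g1 and TRINITY_DN38575_c0_g1 are higher in every WD plant, and TRINITY_DN38648_c0_g1 and TRINITY_DN32774_c2_g1 are lower in every WD plant.

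At an FDR of 0.05 the response was broad. With the same edgeR fit and fold threshold, 4395 genes (15.6%) were called, of which 1721 (6.1%) were higher and 2674 (9.48%) lower in WD plants. The median log2 fold change was 1.91 for the genes that rose, which is 3.75-fold, and -2.07 for those that fell, which is 4.20-fold. Changes of at least 4-fold were found for 791 of the genes that rose and 1410 of those that fell, and changes of at least 16-fold for 152 and 199. The genes that rose held 17.4%, 14.4% and 19.0% of all TPM in WD plants and 5.04% and 4.64% in C plants. Those that fell held 3.76%, 4.61% and 3.84% in WD plants and 21.0% and 22.8% in C plants. The genes that fell lost a larger share of the TPM than the genes that rose gained at this threshold too. The sets were closer in size than among the strict DEG. TPM has the same total in every library, so no net loss of transcripts can be read from these shares. Without WD plant 2 the count was 6071, of which 53.1% were lower, and 4138 of the 4395 genes were among them. It was 25 without C plant 1 and 0 in edgeR without C plant 2, where 5432 genes had an unadjusted p under 0.05.

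**Figure D3:**
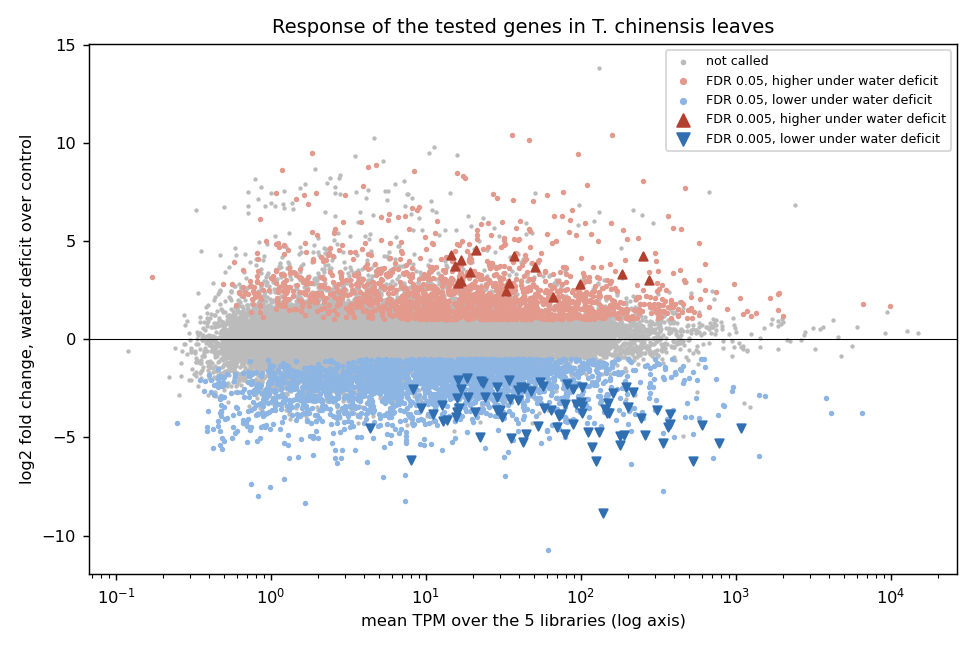
Log2 fold change of WD over C for each of the 28210 tested genes against its mean TPM over the 5 *T. chinensis* libraries, on a log axis. Triangles are the 16 up-regulated and 82 down-regulated DEG, and pale points are the genes called at an FDR of 0.05. No DEG lies at a mean TPM under 1.

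Most tested genes had an estimated change of less than 2-fold. The median log2 fold change was 0.015, with 25% of genes below -0.60 and 25% above 0.55. For 44.8% of the tested genes the absolute log2 fold change was under 0.5, and for 69.7% it was under 1. For 9699 genes (34.4%) the log2 fold change with 2 SE on either side stayed within 1 of 0, so a change of 2-fold or more lies outside that range. At the other end, 3958 genes were 2-fold or more higher and 4589 were 2-fold or more lower in WD plants, more than the 4395 that also passed the FDR of 0.05.

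The direction of the response changed with abundance. Of the genes called at an FDR of 0.05, 69.4% were lower in WD plants at a mean of 1 to 10 TPM, 56.4% at 10 to 100 TPM and 45.5% at 100 to 1000 TPM. The share of tested genes that rose went up with abundance, at 4.27%, 7.03% and 16.1% in these classes, and reached 20.7% of the 58 genes at 1000 TPM and over. The share that fell was 9.70%, 9.11%, 13.4% and 12.1% in the same classes. These shares depend on precision as well as on the size of the changes. The median SE of the log2 fold change was 0.427, 0.241, 0.249 and 0.342 in these 4 classes. Called or not, 35.9%, 23.7%, 39.4% and 43.1% of their tested genes had an estimated change of 2-fold or more. The rise in called genes from 1 to 10 TPM to 10 to 100 TPM thus does not show a stronger response. The mean over 5 libraries gives the 3 WD plants more weight than the 2 C plants. With both groups given equal weight, an alternative chosen after seeing the data, the shares that were lower were 67.2%, 58.1% and 51.5%. The order of the classes held, but the excess of risen genes at 100 to 1000 TPM did not. With equal weights the share of tested genes that fell also went up with abundance, at 9.32%, 9.52%, 15.2% and 16.9%. The share that rose was 4.56%, 6.88%, 14.3% and 18.6% in these classes, from 1 to 10 TPM up to 1000 TPM and over. The order of the shares that were lower held in 17 of the 18 alternatives that gave calls. The exception was the fit without C plant 1. All except the equal-weight alternative kept the classes by the mean over 5 libraries, so they do not test the classing.

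**Figure D4:**
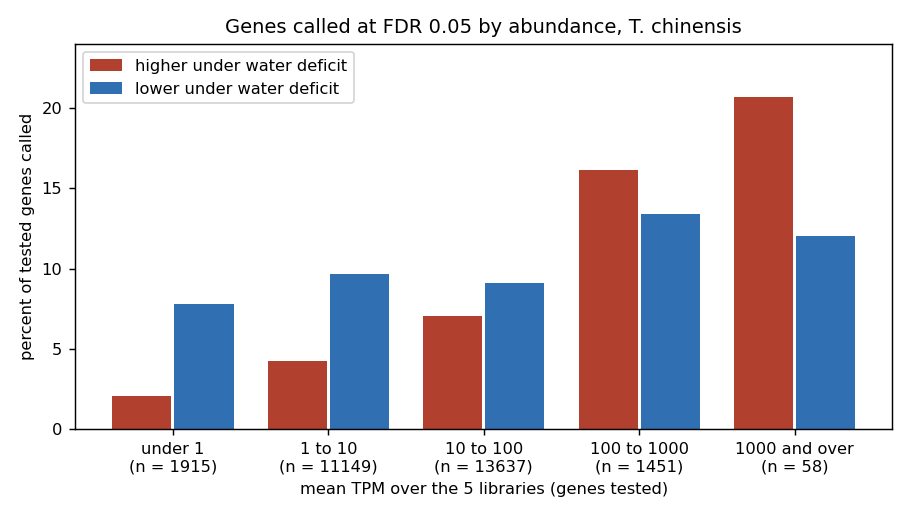
Percent of tested *T. chinensis* genes called at an FDR of 0.05 as higher (left bar) or lower (right bar) under WD, by mean TPM over the 5 libraries. Genes that rose increase from 2.09% to 20.7% over the classes. With equal weight for both groups, genes that rose are 14.3% and genes that fell 15.2% at 100 to 1000 TPM.

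The most abundant transcripts of the leaf included large changes. Among the 10 genes with the highest mean TPM, 2 rose and 1 fell at an FDR of 0.05. The one that fell was listed at 1228, 1548 and 658 TPM in WD plants, against 15354 and 13839.5 TPM in C plants, with a log2 fold change of -3.75 (edgeR adjusted p = 0.00714). It was among the most abundant transcripts of well-watered leaves and dropped in every WD plant. The third-ranked gene had 10160, 11120.5 and 19613.9 TPM in WD plants, against 4228.65 and 4396.24 TPM in C plants, with a log2 fold change of 1.68 (edgeR adjusted p = 0.0270). All WD plants lay above both C plants, WD plant 3 by the most. These genes were picked by rank of abundance, and none passed the strict threshold.

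Individual WD plants differed in how far they had moved. Of the tested genes, 1475 were at least 2-fold above the C mean in all 3 WD plants and 2610 were at least 2-fold below it. A further 1889 were that much higher in 2 of the 3 plants, and 1543 were that much lower in 2. In 542 genes, WD plants 1 and 3 were both at least 2-fold higher while WD plant 2 lay within 0.5 log2 units of the C mean. The corresponding count was 132 genes with WD plant 1 near the C mean and 112 with WD plant 3 near it. For falls the counts were 170 genes for WD plant 2, 92 for WD plant 1 and 136 for WD plant 3. In all, 3794, 2902 and 3702 genes were at least 2-fold above the C mean in WD plants 1 to 3, and 4955, 4465 and 4197 were at least 2-fold below it. WD plant 2 thus had the fewest genes that rose, and WD plant 3 the fewest that fell.

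The called genes also differed by plant. Among genes that rose at an FDR of 0.05, WD plant 2 was the WD plant nearest to the C mean in 991 (57.6%), against 321 for WD plant 1 and 409 for WD plant 3. Among those that fell it was nearest in 1058 (39.6%), against 552 for WD plant 1 and 1064 for WD plant 3. The median log2 distance of the risen genes from the C mean was 1.75, 1.43 and 1.69 in WD plants 1 to 3, and that of the fallen genes was -1.92, -1.78 and -1.73. The median SD of log2(CPM + 0.5) over all tested genes was 0.314 among the WD plants and 0.166 between the C plants. At equal spread a median SD from 2 plants lies lower than that from 3, so these values are not directly comparable.

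A few genes went between no fragments and at least 10 per library. In 7 genes the count was 0 in both C plants and at least 10 in every WD plant. In 12 genes it was 0 in all 3 WD plants and at least 10 in both C plants. The numbers depended on single plants. With any 2 WD plants set against both C plants, 11 to 47 genes appeared and 27 to 56 disappeared. Of the 7 that appeared under WD, 6 were called at an FDR of 0.05 and 0 at 0.005, and of the 12 that disappeared, 7 were tested and all 7 were called at 0.05. Taking 3 counts per library as the floor, which was 0.192 to 0.293 CPM, those that appeared were at least 8.42-fold higher in WD plants and those that disappeared at least 2.79-fold lower. With libraries thinned to 1 depth the numbers were 8 and 12. In *T. ramosissima* none of these genes switched in this way, and 3 of the 7 and 10 of the 12 had fragments in every C plant. A count of 0 limits the level at this depth and does not show absence.

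Genes of 1 assembly component share part of their identifier and may be variants or relatives. Where both genes of a pair were called, they mostly moved together. There were 5455 components with 2 or more tested genes. In 504 pairs of such genes both members were called at an FDR of 0.05, and 450 pairs (89.3%) moved in the same direction. The other 54 pairs, in 45 components, moved in opposite directions. From the directions of all called genes alone, 52.4% would be expected to share a direction. In 1957 pairs only 1 gene was called, and 64.7% of these pairs had the same sign. The uncalled gene had a median log2 fold change of 0.41 beside a risen gene and -0.32 beside a fallen one. Over all 9200 pairs, called or not, 65.3% had the same sign. Fragments that fit several contigs were shared out by RSEM, and the part of this in the shared or opposite directions was not tested.

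Effective length, a partial measure of the mix of contigs within a gene, changed little. The ratio of count to TPM gives a gene's effective length, which moves when longer or shorter contigs of the gene take over. It does not move when contigs of like length trade places, or in a gene of a single contig. A stable effective length therefore does not show a stable mix. Among 14971 genes with at least 50 fragments and 1 TPM in every library, the log2 difference in effective length lay within 0.2 for 90.4%. One gene passed an FDR of 0.05 (limma adjusted p = 0.0309), with a log2 difference of -0.54, and 1149 genes (7.67%) had an unadjusted p under 0.05. That gene had 25.37, 49.88 and 71.05 TPM in WD plants, against 408.84 and 464.06 TPM in C plants, so its level fell as well. All 11 up-regulated and 51 of 59 down-regulated DEG that could be measured had a length difference within 0.2. The call was lost when any 1 library was left out.

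The *T. chinensis* DEG were set beside the response of *T. ramosissima* at its own wilting point. In that species the same edgeR test called 0 genes (0%) at an FDR of 0.005 and 1114 (3.84%) at 0.05, with 6264 at an unadjusted p under 0.05. All 16 up-regulated *T. chinensis* DEG were tested there, 15 had a positive log2 fold change, and the median was 1.67. Of the 82 down-regulated DEG, 77 had a negative one, and the median was -0.71. At an FDR of 0.05, 5 of the 16 rose in *T. ramosissima*, where 1.54% of all genes did, and 6 of the 82 fell, where 2.29% did. The absolute log2 fold change was under 1 for 2 of the 16 and for 59 of the 82. For all 26564 genes tested in both species the median in *T. ramosissima* was 0.023, and 51.6% were positive and 48.4% negative there. Since the genes were selected on their *T. chinensis* values, their medians in that species are raised by the selection.

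In the wider set, too, most genes had the same sign in both species. Of the genes that rose in *T. chinensis* at an FDR of 0.05, 1544 were tested in *T. ramosissima*, 1427 (92.4%) had a positive log2 fold change there and 211 (13.7%) were called. Of those that fell, 2625 were tested, 2303 (87.7%) had a negative one and 295 (11.2%) were called. The medians in *T. ramosissima* were 0.95 and -0.75. With 1 library left out, the calls in *T. ramosissima* numbered 1054 without WD plant 1, 737 without WD plant 2, 143 without WD plant 3, 108 without C plant 1, 250 without C plant 2 and 0 without C plant 3.

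**Figure D5:**
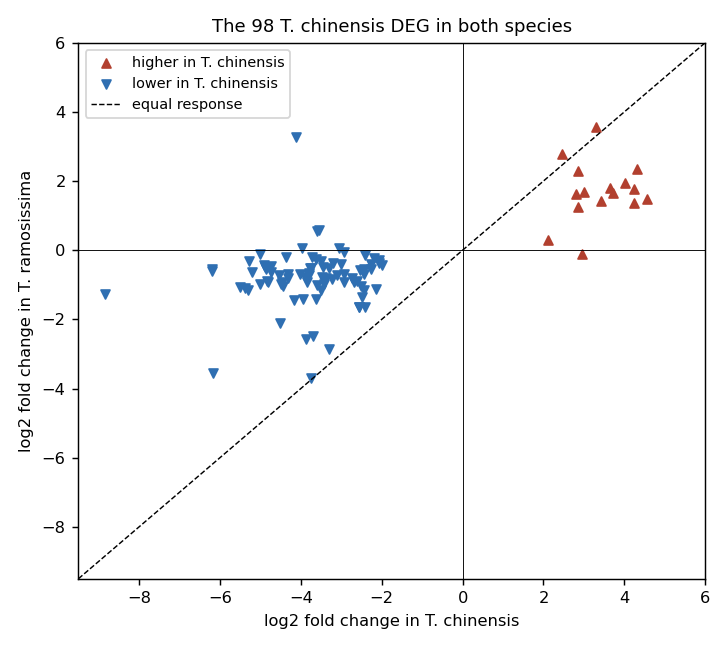
Log2 fold change of WD over C in *T. ramosissima* against that in *T. chinensis* for the 98 *T. chinensis* DEG, with a dashed line of equal response. Of the down-regulated genes, 77 of 82 are negative in both species and 59 lie within 1 of 0 in *T. ramosissima*. Of the up-regulated genes, 15 of 16 are positive in both.

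The difference between the species was tested directly as the interaction of species and treatment. At an FDR of 0.005, 2 of 31320 genes (0.00639%) passed in edgeR, and at 0.05 there were 20 (0.0639%), in 17 of which the *T. chinensis* response was the lower. There were 3630 genes at an unadjusted p under 0.05. The first of the 2 genes had 10.22, 15.28 and 11.36 TPM in WD plants, against 145.99 and 138.84 TPM in C plants of *T. chinensis*. In *T. ramosissima* it had 341.71, 242.06 and 241.99 TPM in WD plants and 109.97, 179.85 and 162.84 TPM in C plants. It was therefore lower in every WD plant of *T. chinensis* and higher in every WD plant of *T. ramosissima*. The second had 21.52, 30.45 and 28.94 TPM in WD plants, against 324.41 and 312.32 TPM in C plants of *T. chinensis*. In *T. ramosissima* it had 427.81, 540.09 and 423.7 TPM in WD plants and 289.64, 319.67 and 312.49 TPM in C plants, again without overlap and in the opposite direction. Of the 98 *T. chinensis* DEG, 1 up-regulated and 8 down-regulated genes passed the interaction at an FDR of 0.05. With 1 library left out, 1 gene passed an FDR of 0.005 in most fits, 2 without *T. ramosissima* WD plant 2 and 88 without *T. ramosissima* WD plant 1. For the other 89 DEG a difference between the species was not shown.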

How the data were processed

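Leaf RNA was sequenced as read pairs on an Illumina instrument. The authors trimmed the reads, assembled both species into 1 Trinity reference, aligned each library with Bowtie and estimated abundance with RSEM (version not given in the sources used here). Deposited expected counts are not normalized, and the authors' deposited TPM values are RSEM's, scaled per library. Of the expected counts of a library, 3.11% to 4.00% were not whole, and all were rounded.

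Tests used R 4.3.3 with edgeR 4.0.16 (TMM factors, quasi-likelihood, Benjamini-Hochberg adjustment). A gene was tested if its CPM was above 1 in 2 or more of the libraries compared. The second tool was limma 3.58.1 with a trend for effective length. DEG passed an FDR of 0.005 with a log2 change of 1 or more in size, and the second threshold was an FDR of 0.05. Standard errors came from the fold change and the F statistic. Single values per library were tested by exact permutation. Distances used log2(CPM + 0.5). Alternatives were DESeq2 1.42.0, edgeR's exact test, limma-voom, limma-trend on TPM, other scalings and filters, thinning, a replicate block and leaving out each library. The tests across genes were tested on simulated data. The simulated counts had the same spread for every gene and only large changes. This does not show how the tests perform at the spread and changes of these data.

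Members and lists were chosen with earlier results of these data known. The named genes were, in each direction, the DEG with all WD plants on 1 side of both C plants with the smallest p and the one with the highest mean CPM. Floors cover counting error only. Gene names, pathways, homologs and sequences were not used here.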

Additional observations from a re-analysis of the deposited data

Results flagged for a closer look

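The response to water deficit differed between the species in 2 genes, by the test of the interaction itself at an FDR of 0.005. The log2 fold change of WD over C was lower in *T. chinensis* than in *T. ramosissima* by a difference of -4.09 ± 0.26 in the first (SE; edgeR adjusted p = 3.94e-04) and of -4.09 ± 0.34 in the second (SE; edgeR adjusted p = 0.00260). In each, all 3 WD plants of *T. chinensis* lay below both C plants and all 3 WD plants of *T. ramosissima* lay above their 3 C plants. Harvest was on day 10 in *T. chinensis* and on day 17 in *T. ramosissima*, and the seed came from New Mexico and Montana. Neither difference can be told apart from species.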

How the results depend on the processing

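The 98 DEG became 930 in 1 fit of all 4 groups, 373 with a CPM above 1 in all 5 libraries, 3940 in DESeq2, 4011 in edgeR's exact test, 188 in limma-voom, 45 in limma-trend on log2(TPM + 0.1) and 5751 with no filter, and leaving out 1 library gave 0 to 864. The other 5 settings gave 95 to 134. The 4395 genes at an FDR of 0.05 became 7679 with no filter and 0 (without C plant 2) to 6071 (without WD plant 2) with 1 library left out. Of the 98, 86 passed an FDR of 0.05 in all 13 settings that kept every library. WD and C plants share 2 replicate numbers, whose deviations from the group means had r of 0.0207 and 0.101 over 28210 genes. The deviations of the 2 C plants mirror each other. These values therefore cannot settle whether same-numbered plants shared more than a number. With the replicate block there were 0 DEG, 8568 genes at an unadjusted p under 0.05, 1961 genes at an FDR of 0.05, 0 genes with a changed effective length and 0 interaction genes. Effective length gave 1 gene, 0 at a count of at least 20, 4 at 200, 0 without a trend and 0 with any library left out. The 2 interaction genes became 350 in DESeq2 and 1088 with no filter, and 1 to 88 with 1 library left out (88 without *T. ramosissima* WD plant 1). The difference in genes detected turned to -466.5 at 0.5 TPM, -537.5 at 5 TPM and -581.5 at a thinned count of 10, and lay between -1346 (without C plant 2) and 2419 (without C plant 1). The share of TPM in the 100 most abundant genes differed by 0.47 to 1.10 points with 1 library left out and kept its direction in all 8 alternatives. The 1114 calls in *T. ramosissima* became 0 to 1054. Each named gene kept its direction in 18 alternatives and passed the strict threshold in 12 or 13. The share of called genes at 100 to 1000 TPM that were lower was 45.5%, 51.5% with equal group weights and 56.7% with the replicate block. The causes were not tested. At 10245008 to 15655257 fragments per library, levels near 1 CPM carry a large counting error.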
